A study of Gallus gallus with 6 samples.

Results

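The SOX and FOX genes encode large families of transcription factors, and 35 of them were followed along the cochlear duct of the chicken embryo. Members were taken by name, as every entry of the table called SOX or FOX followed by a family number, with SOX10, SOX14 and FOXD3 left out. This gave 11 SOX and 24 FOX genes of 17684 genes in the table. Other genes of both families are not analysed here, except that SOX10 and FOXD3 are in the list of glia and neural crest markers. The levels of SOX10 and FOXD3 are also given beside those of the members.

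SOX proteins bind DNA through a high mobility group box and are grouped by the likeness of that box (B1, C, D, E, F), and factors of the same group often act on the same sites. FOX proteins bind through a forkhead domain, and their classes carry letters from A to S. In the ear, SOX2 is needed in mouse for the prosensory cells that give rise to hair cells and supporting cells. Other members belong to tissues that surround the epithelium: SOX9, SOX5 and SOX6 to cartilage, SOX7 and SOX18 to blood vessels, FOXC2 to mesenchyme and vessels.

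RNA was sequenced from ducts of embryonic day 6.5, cut into a proximal, a middle and a distal piece, with 2 libraries per region. No treatment, genotype or strain is given in the labels. Pieces of a region were combined across ducts, each held prospective tegmentum vasculosum as well as basilar papilla, and the distal piece also held the future lagena. The labels speak of separate biological replicates but not of how many ducts each pool held, so a p-value measures only the spread between these pools. The column names place each library in a first or a second set, so each region has 1 library of each.

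Values are RPKM, the authors' reads per kilobase of gene, scaled by the aligned reads of the library, which allows levels of different genes to be compared. The first set held 9262860 to 23537713 alignments per library and the second 56103107 to 73918748, so that 1 read per kilobase of gene was worth 0.0425 to 0.108 RPKM in the first set and 0.0135 to 0.0178 RPKM in the second. Prosensory and supporting cell markers, as a check of the labelled tissue, were all above 0 in all libraries, with a summed level of 763 to 1246 RPKM over 14 genes. Of these, 9 stood distally above their proximal value in each set and 3 below it, against 33.3% and 24.7% of all genes tested. The blocked limma model called 3 higher, against 0.247% of all genes. Their median difference was 0.41, against 0.10 over all genes. Differences are in log2(RPKM + 1) units, and their SE comes from a limma model in which the set is a replicate block (the blocked model). The model that lacks it, the main fit, is called unblocked. Its SE was larger for every member tested. Between distal and proximal it was 0.41 against 0.23 for FOXC2, 0.68 against 0.32 for SOX3 and 0.60 against 0.19 for FOXP4.

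SOX11 was the most abundant member, followed by SOX2, SOX8, SOX9 and FOXP4. SOX10, left out of the members, stood above SOX11 in each library, at 142 to 227 RPKM. SOX11, a group C factor of neural progenitors and young neurons, averaged 145 RPKM over the 6 libraries, above 95.8% of the 12559 genes tested. Its lowest library, at 121 RPKM, stood above the highest value of any other member, 88.5 RPKM for SOX2. SOX2 averaged 71.7 RPKM, SOX8 61.2, SOX9 56.7 and FOXP4 52.8. The ranges of these 4 genes over the libraries overlapped, so their order is not resolved.

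At the other end, 6 members did not reach 1 RPKM in 2 libraries and were not tested. FOXA2, a factor of endoderm and floor plate, was listed at 0 in 5 of 6 libraries. SOX30, known from mouse testis, was listed at 0 in 3 libraries and reached 0.0783 RPKM. FOXN1, the thymic epithelium factor, stayed at or under 0.132 RPKM. FOXI1, which drives ionocyte genes in the inner ear of mouse, was listed at 0 in the first-set proximal and distal libraries and at 0.0788 RPKM in the first-set middle library. In the second set it stood at 0.050, 0.0140 and 0.0165 RPKM from proximal to distal. FOXI3, needed for the otic placode, lay between 0.359 and 0.642 RPKM in every library. FOXE3, a lens factor, measured 1.08 and 0.280 RPKM in the proximal libraries, 0 and 0.140 in the middle and 0 and 0.138 in the distal.

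The remaining 29 members were tested, 10 SOX and 19 FOX genes. Of these, 22 reached 1 RPKM in all 6 libraries and 7 in some. FOXN4 reached 1 RPKM in the 2 proximal libraries alone, so it entered the test through the region where it is high. FOXO1A did so in the second set alone.

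**Figure D1:**
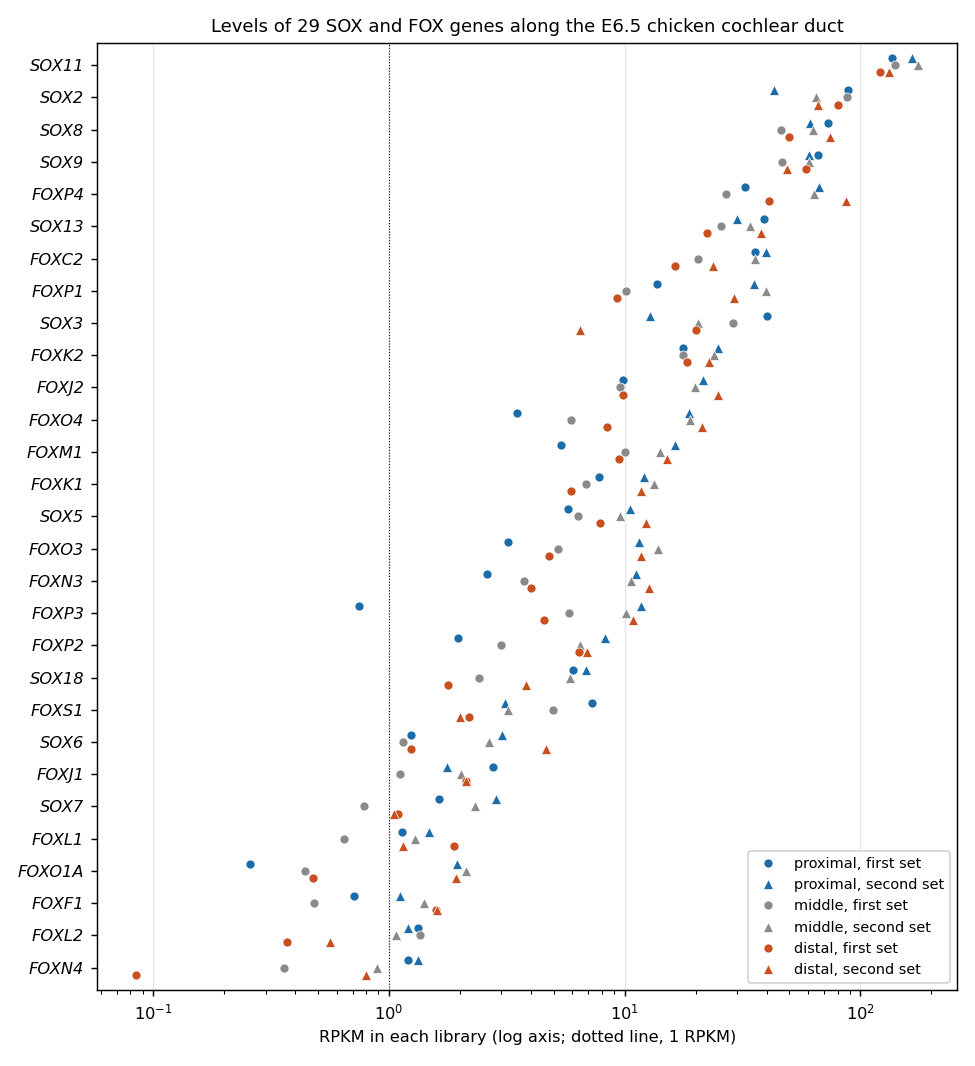
RPKM of the 29 tested SOX and FOX genes in each library, on a log axis, ordered by mean level from the bottom up. Colour marks the region, circles the first set and triangles the second set. The 6 SOX11 values, from 121 to 176 RPKM, stand above those of all other members.

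No SOX or FOX gene passed the threshold, an adjusted p below 0.05, in any comparison of regions. In limma without the block 0 of 29 members were called between distal and proximal, where 0% of all genes tested were called, and the smallest adjusted p of a member was 1.00. In the blocked model 0 members were called, where 0.526% of all genes were, and the smallest adjusted p of a member was 0.159, for FOXC2. At an unadjusted p below 0.05 the unblocked limma model had 0 members, against 1.63% of all genes higher and 2.41% lower in the distal piece. The blocked model had 6 members lower (FOXC2, FOXL2, FOXN4, FOXS1, SOX18 and SOX3) and 0 higher, against 7.59% and 7.12% of all genes. Of these, FOXN4 passed the filter through its proximal libraries alone and FOXL2 had no distal library at 1 RPKM. Their place among the 6 is no support for a lower distal level. Calls appeared in blocked fits that left out a proximal library and kept 1 residual degree of freedom. With the first-set one left out FOXC2 and SOX2 were called, against 6.35% of all genes, and with the second-set one left out 13 members, against 55.7%. The 13 were FOXC2, FOXM1, FOXN3, FOXN4, FOXO4, FOXP1, FOXP2, FOXP3, FOXS1, SOX3, SOX8, SOX13 and SOX18. The median difference of the 29 members was -0.04, against 0.10 over all genes tested, with a range from -1.02 for SOX18 to 0.79 for FOXP3.

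For some members the proximal and distal libraries did not overlap, even though none was called. Both distal libraries lay below both proximal ones for 8 tested members, against 10.3% of all genes tested, and above both for 1 member, against 13.1%. The 8 were FOXC2, FOXL2, FOXN4, FOXS1, SOX7, SOX9, SOX11 and SOX18, and the other was FOXF1. FOXN4 passed the filter through its proximal libraries alone and FOXL2 had no distal library at 1 RPKM, so their place in this count is no support for a lower distal level. Without the filter on low values the counts over all 35 members were 10 lower, with FOXE3 and SOX30 added, and 1 higher, against 10.2% and 11.4% of the whole table. The rule is easier to meet with 3 libraries. With the first-set proximal library left out 15 members were lower and 3 higher, against 34.9% and 24.7% of all genes. With the second-set proximal one left out 12 were lower and 14 higher, against 26.2% and 50.7%. With the first-set distal library left out the counts were 9 and 9, against 35.6% of all genes higher and 21.4% lower. With the second-set distal one left out 12 were lower and 2 higher, against 26.3% and 26.7%. Over all genes these counts ranged from 2683 to 4381 lower and from 3107 to 6364 higher.

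Among the group B1 genes, SOX3 and SOX2 each decreased stepwise from proximal to distal in the first set. In the second set SOX2 increased stepwise, while SOX3 was highest in the middle and lowest in the distal piece. SOX3, a factor of neural progenitors that is also used in the otic placode, measured 40.3 RPKM in the first-set and 12.8 RPKM in the second-set proximal library. The middle libraries held 28.9 and 20.5 RPKM, and the distal ones 20.0 and 6.47 RPKM. Within each set the distal piece held about the same fraction of the proximal level, 0.496 in the first and 0.504 in the second. The groups nevertheless overlapped, because the first-set distal value exceeded the second-set proximal one, and the difference was -0.93 ± 0.32 (blocked limma adjusted p = 0.273). Against the middle piece the libraries did not overlap, with a difference of -1.02 ± 0.32 (blocked limma adjusted p = 0.473). That p was 0.0488 with the first-set proximal library left out, in a fit with 1 residual degree of freedom that called 9.80% of all genes and leaves the difference itself as it was. With a distal library left out the unblocked difference was -1.76 (first set) and -0.27 (second set). With a middle library left out the blocked one was -1.54 and -0.49.

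SOX2 measured 88.5 and 42.9 RPKM in the proximal, 88.1 and 64.8 in the middle and 80.3 and 65.8 in the distal libraries. The proximal libraries enclosed all other values, and the distal against proximal difference was 0.23 ± 0.25 (blocked limma adjusted p = 0.620). The sign depended on the set. It was -0.14 in the first and 0.60 in the second, 0.41 over both under quantile normalization, and -0.28 without the second-set proximal library in the unblocked model. Without the first-set proximal library the blocked difference was 0.57, in a fit with 1 residual degree of freedom. The ratio of SOX2 to SOX3, formed within each library, was 2.20 and 3.34 in the proximal, 3.04 and 3.17 in the middle and 4.02 and 10.2 in the distal piece. Both distal ratios stood above the other 4. This ratio was chosen after the values were seen and was not tested. In the reference gene table SOX2 lies within an uncharacterised long non-coding gene, and the use of strand in counting is not known here.

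The group C and group E genes varied little between pieces. SOX11 measured 136 and 165 RPKM in the proximal, 140 and 176 in the middle and 121 and 132 in the distal libraries. The distal values lay below all others, with a difference from proximal of -0.24 and a ratio of mean levels of 0.841. Under quantile normalization the distal and proximal libraries of SOX11 overlapped. Of 10 tested neuron markers, 10 stood distally below their proximal value in each set, against 24.7% of all genes tested, with a median of -0.96. The blocked limma model called 3 lower, against 0.279% of all genes. The sum of the 10 was 956 to 1085 RPKM in the proximal and 436 to 446 in the distal libraries. Their part in the SOX11 and SOX3 values was not tested. SOX9, the main activator of cartilage genes and also a factor of the early otic epithelium, measured 66.0 and 60.2 RPKM in the proximal, 46.5 and 60.3 in the middle and 58.6 and 48.8 in the distal libraries. Its distal libraries lay below the proximal ones by -0.23 ± 0.23 (blocked limma adjusted p = 0.595), which is about the size of its SE. With a distal library left out the blocked difference was -0.42 (first set) and -0.04 (second set). SOX8, which acts beside SOX9 in neural crest, lay between 46.0 and 74.5 RPKM. The ratio of SOX8 to SOX9 was between 0.848 and 1.53 in all libraries, with its lowest and highest value both in the distal piece.

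The group D genes SOX5 and SOX6, which assist SOX9 in cartilage, differed by small margins between the ends. SOX5 measured 5.74 and 10.5 RPKM in the proximal and 7.86 and 12.3 in the distal libraries. SOX6 measured 1.24 and 3.02 against 1.24 and 4.62, so that the ends were level in the first set. The libraries of both genes overlapped between the pieces. SOX13, their relative in group D, lay between 22.4 and 39.0 RPKM and went in opposite directions in the sets. Of 9 tested cartilage markers, 5 stood above their proximal value in each set and 0 below it, against 33.3% and 24.7% of all genes tested, and 0 passed in either limma model. Their median difference was 0.31, against 0.10 over all genes. ACAN, the cartilage proteoglycan aggrecan, measured 0.335 and 1.12 RPKM in the proximal and 1.70 and 2.93 RPKM in the distal libraries. The summed level of the 9 genes was 714 and 1091 RPKM in the proximal and 944 and 1275 RPKM in the distal libraries. Most of this sum was COL2A1, with 559 and 791 RPKM in the proximal and 727 and 941 in the distal libraries.

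The group F genes SOX18 and SOX7, which act in the endothelium of blood and lymph vessels, were lowest in the distal piece on average. SOX18 measured 6.03 and 6.83 RPKM in the proximal, 2.40 and 5.85 in the middle and 1.78 and 3.81 in the distal libraries. Its values decreased stepwise from proximal to distal in each set, and neither the middle nor the distal libraries overlapped the proximal ones. With the pseudocount of 1, the distal against proximal difference of -1.02 was the lowest among the 29 members (SE 0.29, blocked limma adjusted p = 0.197). The SE was 0.53 unblocked. With a pseudocount of 0.1 the difference was -1.26, and FOXN4 and FOXL2 were lower, at -1.74 and -1.29. With the second-set proximal library left out the blocked difference of SOX18 from proximal was -1.39 in the distal and -0.99 in the middle piece. With the first-set one left out they were -0.65 and -0.25, each fit having 1 residual degree of freedom. Unblocked, the distal difference ranged from -1.41 to -0.62 with a distal library left out, and the middle one from -1.13 to -0.12 with a middle library left out. SOX7 measured 1.63 and 2.85 RPKM in the proximal, 0.783 and 2.31 in the middle and 1.09 and 1.05 in the distal libraries. Its distal values lay under both proximal ones, a difference of -0.62 ± 0.29 (blocked limma adjusted p = 0.383). Blocked, it was -0.99 and -0.25 with the first-set and the second-set distal library left out, and unblocked -0.35 without the second-set proximal one. It was -0.95 with a pseudocount of 0.1.

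Other endothelial markers were measured beside them. Of 13 tested, 7 stood distally below their proximal value in each set and 1 above it, against 24.7% and 33.3% of all genes tested, and limma called 0 in either model. Their median difference was -0.21, against 0.10 over all genes. Their summed level was 109 to 113 RPKM in the proximal, 85.9 to 106 in the middle and 88.0 to 96.8 in the distal libraries, and none of them was at 0 in any library. FLI1, a transcription factor of blood vessels and blood cells, measured 5.17 and 9.17 RPKM in the proximal and 2.20 and 5.11 in the distal libraries. CLDN5, the tight junction protein of endothelium, measured 21.4 and 16.7 against 5.26 and 14.9 RPKM. EGFL7, a secreted protein of endothelium, went the other way, with 34.3 and 15.3 RPKM in the proximal and 35.0 and 30.9 in the distal libraries, and was chosen after its values were seen. Genes of red blood cells, most of them globins, also stood lower, 7 of 7 tested in each set, against 24.7% of all genes. Their median was -1.48, and limma called 0 in either model. They summed to 2776 to 5707 RPKM in the proximal and 1234 to 1590 in the distal libraries. In pooled tissue, fewer cells of a type and less RNA per cell cannot be told apart, and the part of these markers in the SOX18 and SOX7 values was not tested.

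**Figure D2:**
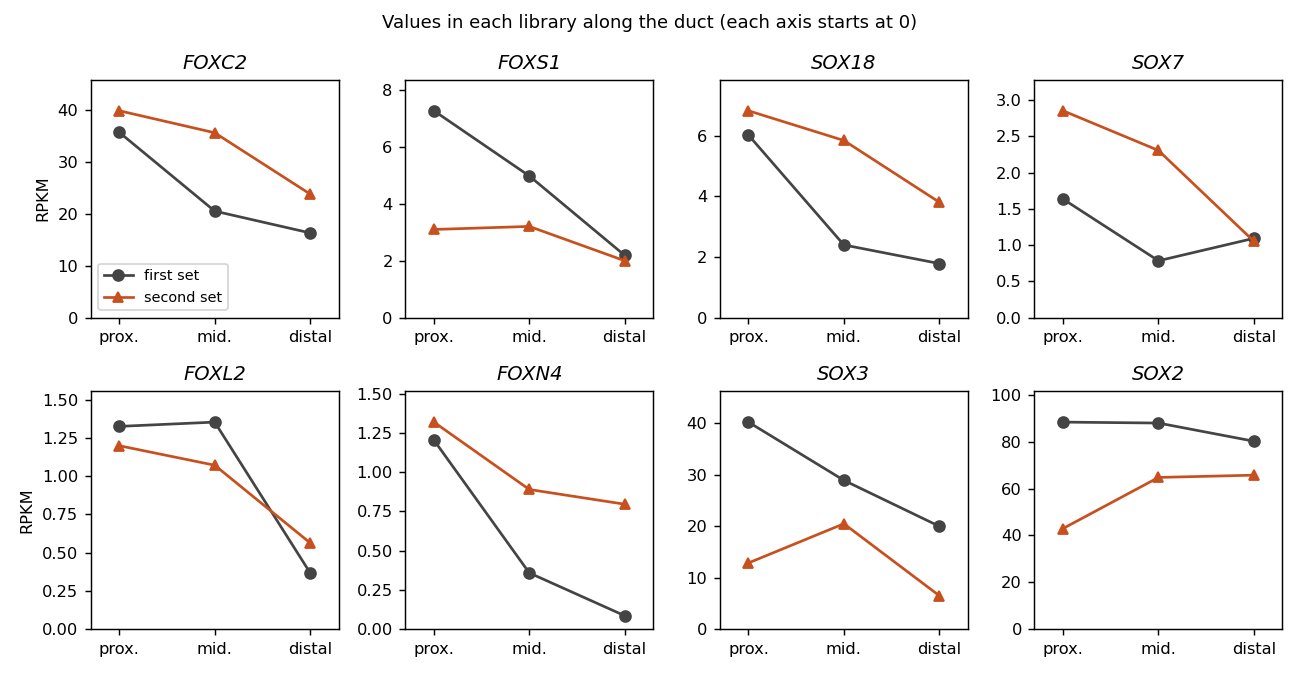
RPKM along the duct for 8 genes, with circles and dark lines for the first set and triangles and orange lines for the second. Both distal libraries lie below both proximal ones in the first 6 panels. SOX3 lies lower distally within each set but overlaps between sets, and SOX2 shows no common direction.

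Among FOX genes of mesenchyme, FOXC2 and FOXS1 were lower in the distal piece and FOXF1, near 1 RPKM, was higher, though none was called. FOXC2, which acts in paraxial and vascular mesenchyme, measured 35.6 and 39.8 RPKM in the proximal, 20.5 and 35.6 in the middle and 16.3 and 23.8 in the distal libraries. It decreased stepwise in each set, and its mean level of 37.7 ± 2.94 RPKM in the proximal piece was 1.88 times the distal 20.0 ± 5.29 RPKM (SD, n = 2). The difference was -0.90 ± 0.23 with the block (limma adjusted p = 0.159). It was -0.66 with the first-set and -1.15 with the second-set proximal library left out. In these fits, which had 1 residual degree of freedom, the blocked adjusted p of limma was 0.0430 and 0.00166, and 6.35% and 55.7% of all genes were called.

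FOXS1, known in mouse from pericytes and sensory ganglia, measured 7.28 and 3.10 RPKM in the proximal, 4.98 and 3.21 in the middle and 2.19 and 2.00 in the distal libraries. The distal values lay below the other 4, by -0.91 ± 0.29 from proximal (blocked limma adjusted p = 0.246) and by -0.70 ± 0.29 from middle. At 1 residual degree of freedom, the blocked difference from proximal was -1.27 without the second-set and -0.56 without the first-set proximal library. In the unblocked model these were -1.42 and -0.41. The blocked difference from middle ranged from -1.03 to -0.36 with a distal library left out. The proximal libraries themselves differed by more than 2-fold, and under quantile normalization the proximal and distal libraries overlapped. In the reference gene table another gene overlaps FOXS1, so its reads may be shared. Of 6 tested markers of glia and neural crest, 4 stood distally below their proximal value in each set and 0 above it. Of all genes tested, 24.7% and 33.3% did so. The median of the 6 was -1.69, with a summed 422 to 515 RPKM in the proximal and 245 to 295 in the distal libraries. SOX10 and FOXD3, left out of the members, are in this list, and FOXD3 is 1 of the 4. SOX10 supplied 166 and FOXD3 90.3 RPKM of the first-set proximal sum, and 146 and 17.7 RPKM of the first-set distal sum. FABP7, another marker in this list, supplied 243 RPKM of the former, the largest part, and 78.4 RPKM of the latter. The neuron markers given beside SOX11 were lower in the same pieces. Of 9 tested hair cell markers 7 stood lower and 0 higher in each set, against the same shares of all genes, with a median of -0.62. They summed to 156 to 214 RPKM proximally and 97.9 to 107 distally. Of 6 leukocyte markers 4 stood lower and 1 higher, against the same shares, with a median of -0.61. Their sums were 35.5 to 55.2 and 40.8 to 51.3 RPKM. Most of these sums was CD74, the 1 that stood higher. In either model limma called 0 of the glia, hair cell and leukocyte markers. The part of these and of the neuron markers in the FOXS1 values was not tested.

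FOXF1 and FOXL1, mesenchymal factors downstream of hedgehog signals in the gut, lie beside FOXC2 in the chicken reference, in the order FOXL1, FOXC2, MTHFSD, FOXF1. These neighbours had different patterns. FOXF1 measured 0.713 and 1.12 RPKM in the proximal, 0.483 and 1.41 in the middle and 1.59 and 1.60 in the distal libraries. Its distal values lay above the other 4, with a difference from proximal of 0.44 ± 0.26 (blocked limma adjusted p = 0.444). Under quantile normalization its distal and proximal libraries overlapped. FOXL1 lay between 0.642 and 1.89 RPKM and went in opposite directions in the sets, and MTHFSD between 10.3 and 17.0 RPKM.

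The list of periotic mesenchyme markers had no common direction. Of 12 tested, 3 stood distally above their proximal value in each set and 4 below it, against 33.3% and 24.7% of all genes tested. Their median was 0.06, and 0 passed in either limma model. PRRX1, a homeobox gene of limb and head mesenchyme, measured 13.0 and 7.68 RPKM in the proximal and 28.5 and 24.6 in the distal libraries. LUM, the matrix proteoglycan lumican, measured 5.25 and 6.48 against 3.01 and 1.93 RPKM. The summed level of the list was 217 to 315 RPKM in the proximal and 227 to 341 in the distal libraries. Most of this sum was COL1A1 and COL1A2, and its part in the FOXC2 values was not tested.

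FOXL2 and FOXN4 were close to the filter of 1 RPKM used for the test. FOXL2, a factor of ovary and eyelid, measured 1.33 and 1.20 RPKM in the proximal, 1.36 and 1.07 in the middle and 0.368 and 0.564 in the distal libraries. In the reference gene table it overlaps PIK3CB, so its reads may be shared. Both distal values lay below the other 4, with a difference from proximal of -0.63 ± 0.22 and from middle of -0.60 ± 0.22 (blocked limma adjusted p = 0.292 and 0.601). FOXN4, which acts in retina and spinal cord interneurons, measured 1.21 and 1.32 RPKM in the proximal, 0.358 and 0.890 in the middle and 0.0844 and 0.796 in the distal libraries. It decreased stepwise in each set, by -0.70 ± 0.25 between the ends (blocked limma adjusted p = 0.292). Without the second-set proximal library this was -0.96 and without the first-set one -0.43, in blocked fits with 1 residual degree of freedom. It was -0.33 and -1.06 in the unblocked model without the first-set and the second-set distal library. With a pseudocount of 0.1 the differences between the ends were -1.74 for FOXN4 and -1.29 for FOXL2. The first-set distal value of FOXN4 is below 1 read per kilobase of gene in that library. FOXN4 passed the filter through its proximal libraries alone and FOXL2 had no distal library at 1 RPKM. The differences of these genes are therefore no support for a lower distal level.

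Over all tested members a stepwise decrease in both sets was found for FOXC2 and SOX18, and for FOXN4, which entered through its proximal libraries, against 5.61% of all genes tested. A stepwise increase in both sets was found for 1, FOXO4, against 8.55%. FOXO4 measured 3.49, 5.91 and 8.40 RPKM from proximal to distal in the first set and 18.8, 18.8 and 21.4 RPKM in the second, so that most of its increase lay in the first set.

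**Figure D3:**
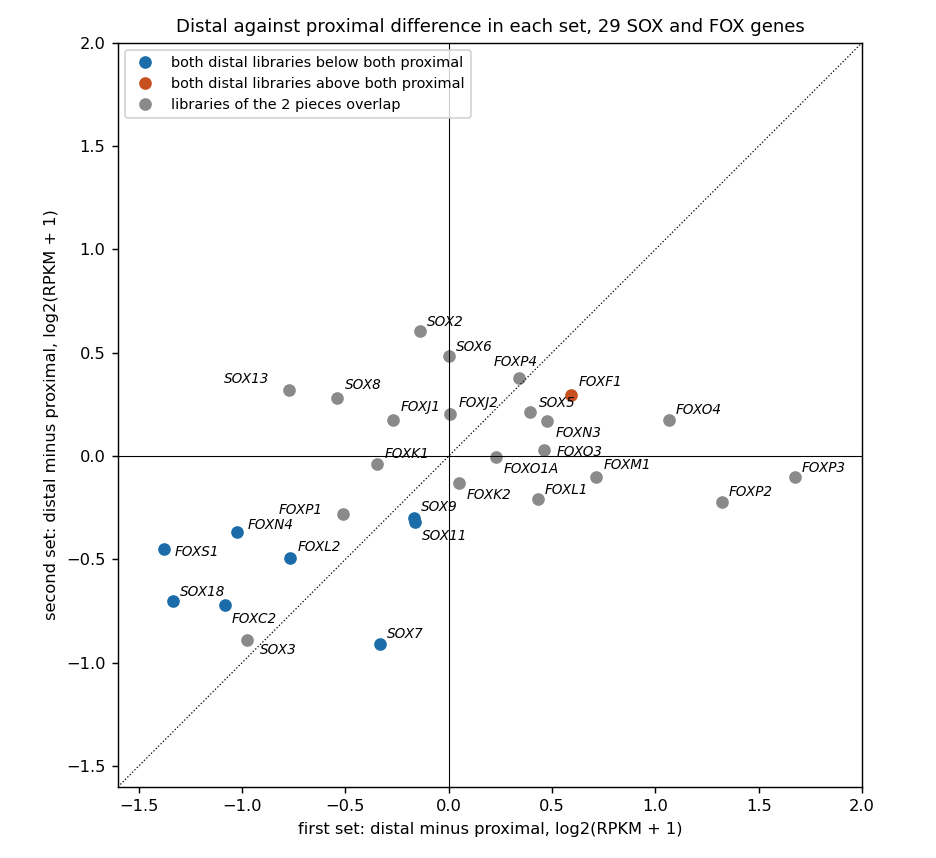
Distal minus proximal difference on the log2(RPKM + 1) scale in the first set (horizontal axis) and the second set (vertical axis) for the 29 tested genes, with the line of equal difference dotted. Blue points are the 8 genes whose distal libraries lie below both proximal ones. FOXP3 and FOXP2 are higher distally in the first set alone.

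FOXJ1, the master regulator of motile cilia, was low throughout. It measured 2.77 and 1.76 RPKM in the proximal, 1.11 and 2.01 in the middle and 2.13 and 2.11 in the distal libraries, with the proximal values on both sides of the distal ones. The distal against proximal difference was -0.05 ± 0.29. Without the first-set proximal library it was 0.30 in the blocked and 0.18 in the unblocked model. Of 9 tested motile cilia genes, 7 stood distally above their proximal value in each set and 0 below it, against 33.3% and 24.7% of all genes tested. None passed in either limma model, and their median difference was 0.64, against 0.10 over all genes. DNAI1, a dynein chain of cilia, measured 1.43 and 1.46 RPKM in the proximal and 3.25 and 2.44 in the distal libraries, and CCDC40, a ciliary assembly protein, 0.724 and 1.82 against 2.67 and 2.58 RPKM. The summed level of the list was 17.9 and 30.3 RPKM in the proximal and 28.6 and 43.8 in the distal libraries.

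Genes of ionocytes, the cells in which FOXI1 acts, were measured beside it. Of 4 tested, 1 stood distally above its proximal value in each set and 3 below it, against 33.3% and 24.7% of all genes tested. Limma called 0 in either model. SLC26A4, which encodes the anion exchanger pendrin, lay between 0.585 and 2.16 RPKM. CA2, a carbonic anhydrase that red blood cells also express, measured 32.8 and 20.0 RPKM in the proximal and 7.73 and 6.63 in the distal libraries (blocked limma adjusted p = 0.0603).

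FOXM1, which activates genes of the G2 and M phases of the cell cycle, measured 5.38 and 16.3 RPKM in the proximal, 9.98 and 14.1 in the middle and 9.46 and 15.2 in the distal libraries. The proximal libraries held both the lowest and the highest value. The difference between distal and proximal was 0.31 ± 0.30, 0.13 under quantile normalization, and -0.41 in the unblocked model if the first-set proximal library is dropped. Dropping the second-set one gave 0.76 in the blocked model, at 1 residual degree of freedom. Of 12 tested mitosis genes, 0 stood distally above their proximal value in each set and 4 below it, against 33.3% and 24.7% of all genes tested. Limma called 0 in either model, and the median difference was -0.0013. PLK1, a mitotic kinase, measured 83.9 and 59.2 RPKM in the proximal and 41.6 and 45.9 in the distal libraries. CENPF, a kinetochore protein, went the other way on average, with 3.13 and 6.72 RPKM in the proximal and 10.8 and 6.01 in the distal libraries. In the reference gene table FOXM1 overlaps RHNO1 and TULP3, so its reads may be shared.

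The broadly used FOX genes differed by set more than by region. FOXN3, FOXO3, FOXO4, FOXP1 and FOXP4 were at least 2-fold higher in the second set in all 3 regions on the log2(RPKM + 1) scale, which was so for 8.50% of all genes tested. Over all genes tested the median difference of the second from the first set was 0.29, and over the 29 members 0.48. In all 3 regions 19 members were higher in the second set, against 48.2% of all genes, and 3 in the first set (FOXS1, SOX2 and SOX3), against 21.0%. The cause of the differences between the sets was not tested.

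FOXP1 and FOXP4 are repressors that form dimers with each other and with FOXP2. FOXP1 measured 13.7 and 35.5 RPKM in the proximal, 10.2 and 39.7 in the middle and 9.30 and 29.0 in the distal libraries. FOXP4 measured 32.2 and 66.5 RPKM in the proximal, 27.0 and 63.5 in the middle and 41.1 and 86.6 in the distal libraries. Within each set FOXP4 was highest in the distal piece, by 0.52 ± 0.19 over the middle and 0.36 ± 0.19 over the proximal piece (blocked limma adjusted p = 0.588 and 0.424). The unblocked SE of each difference was 0.60. Over the middle piece FOXP4 was called by the blocked model when either proximal library was left out, in fits with 1 residual degree of freedom that called 9.80% and 9.03% of all genes. The ratio of FOXP4 to FOXP1 within a library was 4.42 and 2.98 in the distal piece and 1.60 to 2.66 in the other 4 libraries, without overlap. This ratio, too, was chosen after the values were seen and was not tested.

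FOXP2 measured 1.96 and 8.21 RPKM in the proximal, 2.97 and 6.44 in the middle and 6.40 and 6.90 in the distal libraries, so that the distal libraries were alike and the proximal ones 4.19-fold apart. The entry named FOXP3 measured 0.743 and 11.7 RPKM in the proximal, 5.82 and 10.1 in the middle and 4.56 and 10.9 in the distal libraries. The first-set proximal library stood apart, and its difference between distal and proximal was 1.67 in the first set and -0.10 in the second. In the reference gene table FOXP3 is listed as another name of FOXP1, so which gene this entry counts is uncertain.

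**Figure D4:**
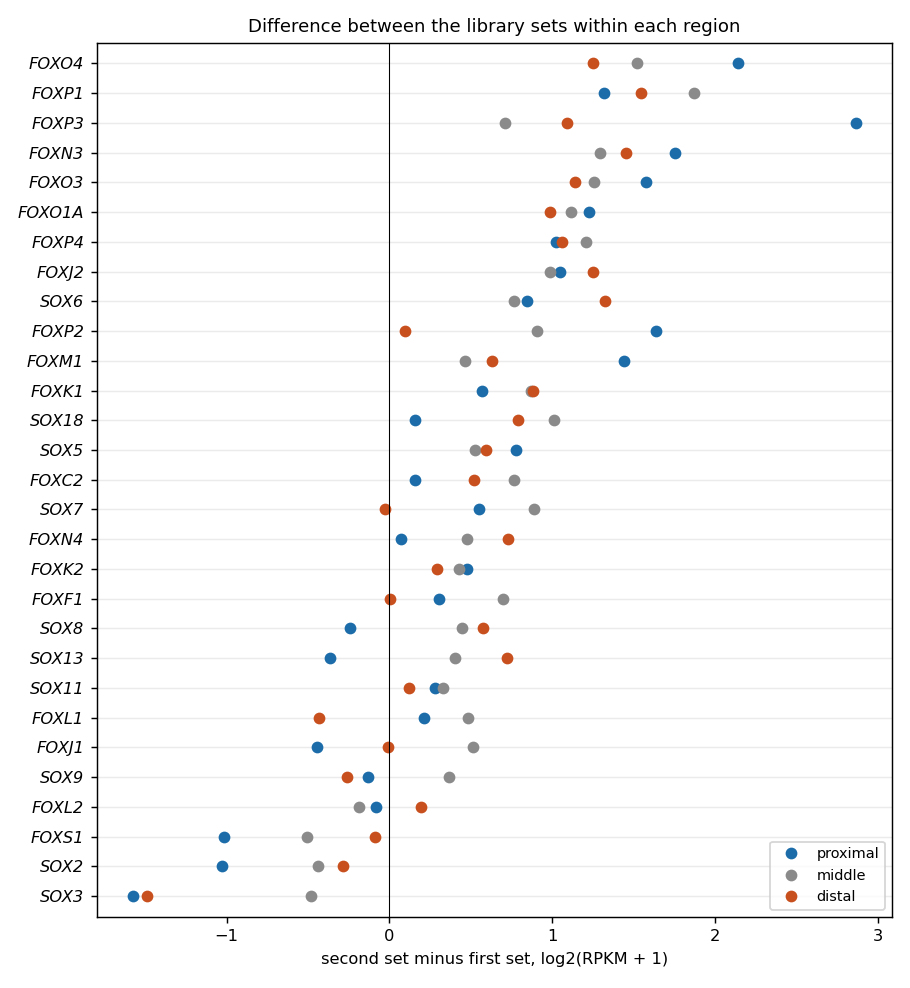
Second-set minus first-set difference on the log2(RPKM + 1) scale for each tested gene, with 1 point per region, ordered by the mean. FOXO4 and FOXP1 lie highest and SOX3 lowest.

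FOXO genes act downstream of insulin signals. FOXO3 lay between 3.19 and 5.22 RPKM in the first set and between 11.5 and 13.9 in the second. FOXO1A, an older name of FOXO1, lay between 0.257 and 0.475 RPKM in the first and between 1.93 and 2.12 in the second set. The checkpoint factor FOXN3 lay between 2.61 and 4.01 and between 10.6 and 12.7 RPKM. FOXK1 and FOXK2 are repressors found in most tissues. FOXK2 measured 17.7, 17.6 and 18.4 RPKM from proximal to distal in the first set and 24.96, 24.0 and 22.7 in the second, and FOXK1 lay between 5.92 and 13.3 RPKM. FOXJ2 measured 9.55 to 9.87 RPKM in the first and 19.9 to 24.8 in the second set.

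Between the middle and the proximal piece, in limma 0 members were called without or with the block, as were 0% of all genes tested. At an unadjusted p below 0.05 limma had 0 members in either model, against 0.263% of all genes higher and 0.621% lower in the middle piece unblocked, and 1.85% and 2.01% blocked. Both middle libraries lay below both proximal ones for 3 members, FOXC2, SOX18 and, with the same limit, FOXN4, against 4.82% of all genes, and above them for 0, against 5.76%. Between distal and middle 0 members were called in either limma model, against 0% of all genes. At an unadjusted p below 0.05 limma had 0 members unblocked, against 0.581% of all genes higher and 1.09% lower. Blocked, it had FOXP4 as higher, against 2.61% of all genes, and FOXL2 and SOX3 as lower, against 5.03%. Without overlap, 4 members were lower in the distal piece (FOXL2, FOXS1, SOX3 and SOX11), against 8.92%, and 2 higher (FOXF1 and FOXJ1), against 12.1%. FOXL2 had no distal library at 1 RPKM, so its place in these lists is no support for a lower distal level. With a proximal library left out the blocked model called 1 to 3 members here (FOXC2, FOXP4 and SOX3), against 9.03% and 9.80% of all genes. Between middle and proximal it called 8 without the second-set one, against 44.5%. The F test over the 3 regions called 0 members in limma, with 0% of all genes called unblocked and 0.0717% blocked. At an unadjusted p below 0.05 it had 0 members unblocked, against 2.36% of all genes, and 4 blocked (FOXC2, FOXS1, SOX3 and SOX18), against 10.1%. Comparisons of the same piece with the other two share libraries, so these counts are not independent.

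The 11 SOX members together held 364 to 457 RPKM per library and the 24 FOX members 135 to 291 RPKM. SOX10, SOX14 and FOXD3 are not in these sums. The proximal libraries held 457 and 396 RPKM of SOX members, the middle 385 and 439 and the distal 364 and 387. SOX10 alone measured 166 and 215 RPKM in the proximal, 142 and 192 in the middle and 146 and 227 in the distal libraries. For FOX members the first set held 135 to 151 RPKM and the second 283 to 291, in whichever region. FOXD3 measured 90.3 and 54.5 RPKM in the proximal, 56.1 and 55.0 in the middle and 17.7 and 24.4 in the distal libraries.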

How the data were processed

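The authors deposited RPKM values per gene for 6 libraries, per the file headers, with the number of alignments of each library as an extra entry that was kept out of all tests. TopHat 1.4.0 and Partek 6.6 were used, per the submitters' processing notes. Genome build, annotation and strand use were not given in the sources used here. Columns name a region and a set but not a sample record.

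The log2(RPKM + 1) values of the 12559 genes that reached 1 RPKM in at least 2 libraries were modelled by region in limma (version 3.58.1, R 4.3.3). All 6 libraries entered, leaving 3 residual degrees of freedom. Variances were moderated with a mean trend, tests were two-sided, and p-values were adjusted by Benjamini-Hochberg over all genes tested. The pseudocount of 1 understates differences of low genes. A second fit added the set as a replicate block (2 residual degrees of freedom). The difference between sets correlated across genes between all pairs of regions (0.655 to 0.885, all above 0.1), so the sets were taken to pair the libraries, as the column names do. The scripts were tested on simulated data.

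The SOX and FOX members and the 12 marker lists were chosen with earlier results of these data known. Values in every library are given for members that were called, for up to 8 members per direction between distal and proximal and up to 4 in the other comparisons whose libraries did not overlap and whose log2 difference was at least 0.58, and for SOX2, SOX9, FOXI1, FOXJ1 and FOXM1. Other members named with such values were chosen after these were seen. Up to 3 genes per marker list are named by the smallest p. Others are named for their part in a sum, as SOX or FOX genes, or after their values were seen. Of the 35 names 32 matched symbols of the RefSeq table of assembly GRCg7b and 2 matched synonyms. The span of 14 members overlaps another gene there, and counting is not known to use strand. The table was used for names and gene order only. No sequences are printed, and a gene withheld from the text is not reported here.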

Additional observations from a re-analysis of the deposited data

How the results depend on the processing

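The count of SOX and FOX genes called stayed at 0 in each comparison with a pseudocount of 0.1, with no filter on low values, with quantile normalization, with the replicate block alone or together with quantile normalization or no filter, and without any 1 library in the unblocked model. With the replicate block and 1 library left out, 1 residual degree of freedom remains and a region rests on 1 library, which is assumed to vary like the others. The counts then ranged from 0 to 13 for distal against proximal, 0 to 8 for middle against proximal, 0 to 3 for distal against middle and 0 to 13 for the F test. All counts above 0 came without a proximal library. Without the first-set proximal library they were 2, 0, 3 and 3, and without the second-set one 13, 8, 1 and 13, where 6994, 5595, 1134 and 6581 of all genes were called. The cause was not tested.

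Of 252 recomputed differences of single genes, 98 equal the reported one because the setting cannot move it (the block, the filter, or a library of the region not compared). Of the other 154, 7 changed sign. Over the fits that leave out 1 library, unblocked, FOXJ1 between distal and proximal ranged from -0.27 to 0.18, FOXM1 from -0.41 to 1.03, and SOX2 from -0.28 to 0.75. With the replicate block the ranges were -0.40 to 0.30, -0.14 to 0.76 and -0.10 to 0.57. FOXM1 was -0.01 without the second-set distal library, and the other 6 sign changes came without a proximal library. The counts of members whose libraries do not overlap, with alternatives chosen after seeing the data, were 7 lower and 1 higher under quantile normalization, against 13.4% and 14.4% of all genes. The 1 was then SOX2 in place of FOXF1. Among the 7 lower, FOXK1 was new, and FOXS1 and SOX11 were no longer in the list. With 1 library left out they ranged from 9 to 15 lower and from 2 to 14 higher, against 21.4% to 34.9% and 24.7% to 50.7% of all genes.

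Depth limits the members near or below 1 RPKM, most of all in the first-set distal library. These are FOXN4, FOXL2, FOXF1, FOXL1, FOXO1A, SOX7 and the 6 untested genes. FOXP3 was also below 1 RPKM, at 0.743, in the first-set proximal library. With 2 pools per region and sets that differ, a p above the threshold does not show that levels were equal.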
